A study of Mus musculus with 16 samples.

Results

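The enzymes that make leukotrienes and prostaglandins were followed across normal mouse melanocytes and 2 inducible mouse melanoma models. The genes were the leukotriene enzymes Alox5, Alox5ap, Lta4h and Ltc4s and the prostaglandin enzymes Ptgs1, Ptgs2, Ptges, Ptgds and Ptgis, and the set was chosen by the measured levels of Ltc4s, sharply higher in one tumour model than in the other. All probe sets whose only gene symbol is one of these were taken, which gave 12 of 22626 probe sets and 7 of the 9 listed genes. Alox5 and Ptgs1 were not analysed here, since no probe set carried their symbol alone.

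The iMet tumours (6 arrays) came from mice in which tetracycline switches on Met, the hepatocyte growth factor receptor (genotype Tyr-rtTA;Tet-Met;Ink4a/Arf-/-). The iHRAS* tumours (6 arrays, titled iRas) came from mice with the same switch on mutant HRAS (genotype Tyr-rtTA;Tet-HRASV12G;Ink4a/Arf-/-). In both models the tyrosinase promoter drives the rtTA switch protein and the Ink4a/Arf tumour suppressor locus is deleted. The comparison group was mouse melanocytes without disease (4 arrays), whose genotype, age and culture are not given in the sources used here. RNA was profiled on an Affymetrix mouse genome array, and the series design asked how melanomas able to metastasise differ from those that are not. The sample labels speak of isolated cells and the design text of RNA from skin melanomas, so the tissue that was extracted is uncertain. The labels do not say that each array was a separate animal, so every p-value measures the spread between these arrays, which may be partly technical.

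Eicosanoids are short-range lipid signals made from arachidonic acid, which phospholipases cut from membranes. In the leukotriene branch, the lipoxygenase Alox5 acts with its partner protein Alox5ap to make leukotriene A4. Lta4h then hydrolyses that intermediate to leukotriene B4, which attracts neutrophils, whereas Ltc4s joins it to glutathione to make leukotriene C4, the parent of the cysteinyl leukotrienes. In the prostaglandin branch, the cyclooxygenases Ptgs1 and Ptgs2 make a common precursor that Ptges, Ptgds and Ptgis turn into prostaglandin E2, prostaglandin D2 and prostacyclin. Myeloid cells and mast cells are the classical sources of leukotrienes, and Ptgs2 and Ptges are known as inducible genes in skin and in tumours.

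Several measures of the arrays bear on every value below. Signals are given as quantile-normalized log2 values, and a signal at or under 6.21, the 40th percentile over all arrays, is called dim. In the melanocyte arrays the melanocyte-lineage genes Mitf, Tyr, Tyrp1 and Dct were dim on all 4, while Sox10, Pmel and Pax3 were over that level. In the iMet tumours Tyr, Tyrp1, Dct, Pmel and Pax3 were dim on all 6 arrays. In the iHRAS* tumours 0 of the 7 lineage genes were dim on all 6 arrays. The melanocyte arrays fell into pairs: arrays 1 and 3 correlated at r = 0.949 and arrays 2 and 4 at r = 0.943, against 0.906 to 0.930 across the pairs. The mean log2 signal of 11 keratinocyte markers (led by Krt14, Krt5 and Perp) was 7.88 and 6.86 in melanocyte arrays 1 and 3 and 9.73 and 9.89 in arrays 2 and 4. That of 10 fibroblast markers (led by Col1a2, Col1a1 and Postn) was 10.50 and 11.24 in the first pair and 8.92 and 8.18 in the second. iHRAS* arrays 5 and 6 stood apart by low Xist (6.60 and 6.33, against 10.9 to 13.1 on the other 14 arrays) and by Eif2s3y signals of 6.40 and 7.20. The bioB spike-in control was lower in iHRAS* arrays (7.46 to 8.11 as deposited) than in iMet arrays (8.48 to 9.03) or melanocyte arrays (8.45 to 8.95). In the same order, bioC was 8.53 to 9.32, 9.30 to 9.88 and 9.38 to 9.76, and bioD was 10.69 to 11.11, 10.57 to 11.08 and 10.59 to 11.04.

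Ltc4s, leukotriene C4 synthase, lies on mouse chromosome 11. Its upstream sequence is shown first because its level is the largest difference between the tumour models among these genes, followed by those of Ptgs2 and Ptges, the inducible prostaglandin enzymes. Each is the 250 bases before a transcription start from RefSeq (build GRCm38.p6), read on the gene's strand from 5′ to 3′. The windows are chr11:50238533-50238782 (minus strand) for Ltc4s, chr1:150099781-150100030 (plus strand) for Ptgs2 and chr2:30903298-30903547 (minus strand) for Ptges. The Ptges window lies inside that gene's RefSeq span (30889471 to 30931020), so its motif positions hold only for the start used here. Capitals mark a GC box.
Ltc4s: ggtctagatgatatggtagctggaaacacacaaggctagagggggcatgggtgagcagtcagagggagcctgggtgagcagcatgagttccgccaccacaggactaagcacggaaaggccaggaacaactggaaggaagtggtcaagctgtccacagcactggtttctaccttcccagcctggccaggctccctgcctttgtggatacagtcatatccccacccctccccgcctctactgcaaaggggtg
Ptgs2: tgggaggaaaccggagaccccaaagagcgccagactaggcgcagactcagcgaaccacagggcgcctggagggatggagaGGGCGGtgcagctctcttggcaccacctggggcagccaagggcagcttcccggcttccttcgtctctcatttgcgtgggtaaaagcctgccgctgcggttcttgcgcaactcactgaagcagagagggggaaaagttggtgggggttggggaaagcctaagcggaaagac
Ptges: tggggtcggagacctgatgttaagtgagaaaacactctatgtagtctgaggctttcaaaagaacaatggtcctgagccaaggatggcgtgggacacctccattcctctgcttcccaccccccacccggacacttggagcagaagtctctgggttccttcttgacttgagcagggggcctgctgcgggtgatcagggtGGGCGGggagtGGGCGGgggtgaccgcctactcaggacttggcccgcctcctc
Motifs of 4 kinds were searched on both strands: a GC box (GGGCGG), an E-box (CACGTG), an AP-1 site (TGANTCA) and a TATA box (TATAAA). The Ltc4s window held none of these letters, the Ptgs2 window held 1 GC box at -170 to -165 from the start, and the Ptges window held 2, at -53 to -48 and -42 to -37. Of 32851 mouse promoter windows of the same length, 32.74% held a GC box, 6.02% an E-box, 6.75% an AP-1 site and 12.37% a TATA box. Sequences were matched for 7 of the 9 listed genes. Of the other 4 matched windows, those of Lta4h and Ptgs1 held no match, that of Alox5 held 1 GC box at -35 to -30, and that of Ptgds held 1 AP-1 site at -35 to -29. The Ptgs1 and Ptgds windows also lay inside their gene spans.

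In the leukotriene branch, Ltc4s separated the iMet tumours from everything else. On its 1 probe set (1419692_a_at), the log2 signal was 4.61, 5.91, 5.13 and 3.45 in melanocyte arrays 1 to 4. In the iHRAS* tumours it ran from 4.73 through a median of 6.09 to 6.72. In the iMet tumours it ran from 8.62 through a median of 8.85 to 9.03. Every iMet array was above every other array, and the iHRAS* and melanocyte ranges overlapped. The mean was 4.77 ± 1.03 in melanocytes (SD, n = 4), 5.96 ± 0.70 in iHRAS* (SD, n = 6) and 8.84 ± 0.16 in iMet tumours (SD, n = 6). Ltc4s was over the dim level on 6 of 6 iMet arrays, 3 of 6 iHRAS* arrays and 0 of 4 melanocyte arrays.

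The difference between the tumour models, by which the genes were chosen, was 2.88 ± 0.27 on the log2 scale (SE), or 7.35-fold, and is given as a description with no test. Since 3 of the 6 iHRAS* arrays were dim, that fold is taken against signals near background. It lay between 2.63 and 3.03 when single arrays were left out and was 3.00 without iHRAS* arrays 5 and 6. Against melanocytes the iMet mean was 4.07 ± 0.40 higher (log2, SE). Since the melanocyte signals were dim, the bound from the dim level is at least 6.18-fold. The iHRAS* mean was 1.19 ± 0.40 above the melanocyte mean, with both means under the dim level. These melanocyte contrasts share the melanocyte arrays, as do all pairs of melanocyte contrasts below.

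**Figure D1:**
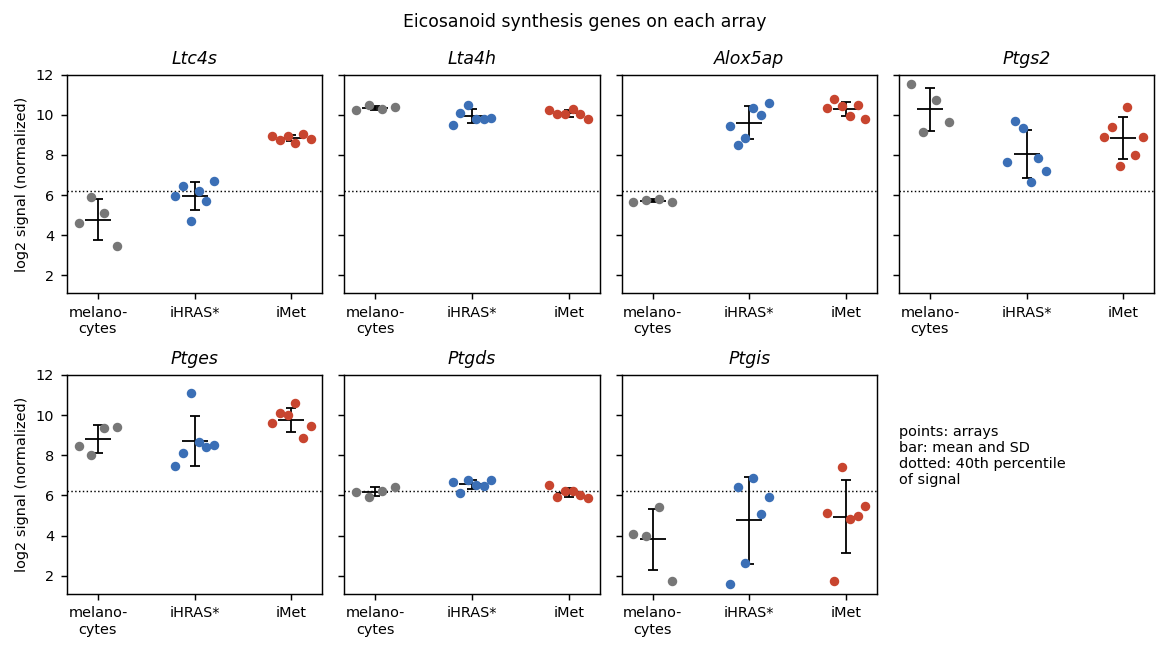
Quantile-normalized log2 signal (y axis) of 7 eicosanoid synthesis genes on each array, by group (x axis). Points are arrays, bars are the mean and SD, and the dotted line is the dim level of 6.21. Ltc4s lies at 8.62 to 9.03 in iMet tumours, above all other arrays, whereas Alox5ap lies above the melanocytes in both tumour models.

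Alox5ap, the partner protein that presents arachidonic acid to Alox5, was high in both tumour models. Its log2 signal was 5.64, 5.77, 5.81 and 5.65 in the melanocyte arrays, all dim. It was 8.49, 9.72 and 10.57 at the lowest, median and highest iHRAS* array and 9.78, 10.38 and 10.76 at those of the iMet tumours. All 12 tumour arrays were above all 4 melanocyte arrays, and the tumour models overlapped. The iMet mean (10.28 ± 0.37, SD, n = 6) was 4.57 ± 0.35 above the melanocyte mean (5.72 ± 0.09, SD, n = 4) on the log2 scale (SE, limma, adjusted p = 2.3e-07), at least 16.9-fold over the dim level. The iHRAS* mean (9.61 ± 0.84, SD, n = 6) was 3.89 ± 0.35 above it (limma, adjusted p = 1.33e-06), at least 10.6-fold. Alox5ap passed the dim filter only through the tumour arrays, and with no such filter the adjusted p-values were 6.08e-07 and 3.36e-06. Between the tumour models the difference was 0.67 ± 0.34 (log2, SE). Leaving out melanocyte arrays 1 and 3, or 2 and 4, left the differences at 4.57 and 4.56 for iMet and 3.90 and 3.89 for iHRAS*.

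Lta4h, the leukotriene A4 hydrolase, had a high and nearly even signal in all groups. On its brightest probe set (1434790_a_at) the log2 signal was 10.26, 10.46, 10.27 and 10.40 in melanocytes. It was 9.48, 9.82 and 10.51 at the lowest, median and highest iHRAS* array and 9.79, 10.04 and 10.29 at those of the iMet tumours. The groups overlapped throughout. The iHRAS* mean (9.92 ± 0.35, SD, n = 6) was lower than the melanocyte mean (10.35 ± 0.10, SD, n = 4) by a difference of -0.43 ± 0.16 (log2, SE, limma, adjusted p = 0.0489). That call held in 3 of 16 fits with 1 array left out, with adjusted p up to 0.120, and the mean over all 3 probe sets gave 0.14, in the opposite direction (adjusted p = 0.511). The iMet mean (10.07 ± 0.18, SD, n = 6) differed from melanocytes by -0.28 ± 0.16 (adjusted p = 0.201) and from iHRAS* by 0.15 ± 0.16 with no test. The other probe sets, 1453528_at and 1426807_at, were dim on at least 14 of 16 arrays.

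In the prostaglandin branch, Ptgs2, the inducible cyclooxygenase, was highest in the melanocytes and lowest in the iHRAS* tumours. On the brighter of its probe sets (1417262_at) the log2 signal was 11.51, 9.14, 10.74 and 9.66 in melanocyte arrays 1 to 4. It was 6.64, 7.74 and 9.67 at the lowest, median and highest iHRAS* array and 7.42, 8.89 and 10.39 at those of the iMet tumours. The ranges overlapped between all groups, and melanocyte arrays 1 and 3 were the highest of all 16. The iHRAS* mean (8.06 ± 1.20, SD, n = 6) was lower than the melanocyte mean (10.27 ± 1.06, SD, n = 4), with a log2 difference of -2.21 ± 0.67 (SE, limma, adjusted p = 0.0165). The second probe set (1417263_at), which followed the first at r = 0.959 over 16 arrays, gave -1.89 ± 0.64 (adjusted p = 0.0299 over all probe sets). The call on the first was lost without melanocyte array 1 (-1.79, adjusted p = 0.0632), without melanocyte arrays 1 and 3 (-1.34, adjusted p = 0.214) and without iHRAS* arrays 5 and 6 (-1.94, adjusted p = 0.0670). The iMet mean (8.83 ± 1.04, SD, n = 6) differed from melanocytes by -1.43 ± 0.67 (adjusted p = 0.108) and from iHRAS* by 0.78 ± 0.59 with no test.

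Ptges, the inducible prostaglandin E synthase that works downstream of Ptgs2, had its highest mean in the iMet tumours. On the brighter of its probe sets (1449450_at) the log2 signal was 8.44, 8.03, 9.38 and 9.42 in melanocytes. It was 7.45, 8.47 and 11.09 at the lowest, median and highest iHRAS* array and 8.86, 9.81 and 10.59 at those of the iMet tumours. The groups overlapped, and iHRAS* array 3, at 11.09, was above every other array. The iMet mean (9.77 ± 0.60, SD, n = 6) was 0.95 ± 0.55 above that of melanocytes (8.82 ± 0.69, SD, n = 4) on the log2 scale and did not pass the test (limma, adjusted p = 0.196). That adjusted p was 0.0496 without iHRAS* array 3, which enters the shared spread. On the second probe set (1449449_at, r = 0.958 with the first over 16 arrays) the same difference was 1.01 ± 0.40 (adjusted p = 0.0675 over all probe sets). The iHRAS* mean (8.71 ± 1.24, SD, n = 6) differed from melanocytes by -0.11 ± 0.55 (adjusted p = 0.890). The iMet mean was 1.06 ± 0.51 above iHRAS*, with no test.

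Ptgds, the lipocalin-type prostaglandin D synthase, lay near the dim level in all groups. On 1423859_a_at the log2 signal was 6.17, 5.93, 6.23 and 6.43 in melanocytes. It was 6.14, 6.60 and 6.77 at the lowest, median and highest iHRAS* array and 5.89, 6.12 and 6.51 at those of the iMet tumours. It was over the dim level on 2 of 4 melanocyte, 5 of 6 iHRAS* and 3 of 6 iMet arrays. The iHRAS* mean differed from melanocytes by 0.36 ± 0.15 (log2, SE, limma, adjusted p = 0.0741), but by 0.53 (adjusted p = 0.0245) in the values as deposited and by 0.52 (adjusted p = 0.0125) with each array centred on its median. The iMet mean differed from melanocytes by -0.05 ± 0.15 (adjusted p = 0.804), a sign that turned under both other scalings, and from iHRAS* by -0.42 ± 0.14 with no test. Its other probe set (1423860_at) was dim on all 16 arrays.

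Ptgis, the prostacyclin synthase, was not tested, since too few arrays were over the dim level. On 1448816_at its log2 signal was 4.08, 3.99, 5.44 and 1.75 in melanocytes, 1.60 to 6.88 in iHRAS* tumours and 1.75 to 7.40 in iMet tumours. The dim level was passed on 2 of 6 iHRAS* arrays and 1 of 6 iMet arrays.

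Across the set, 6 of the 7 genes passed the filter on dim signals in each comparison, Ltc4s and Alox5ap only through tumour arrays. Because of that, the counts below describe the genes and support nothing. Against melanocytes, 1 of the 5 tested genes other than Ltc4s was called higher in iMet tumours (Alox5ap), where 16.4% of all 8651 genes tested were called higher, and 0 were called lower, where 18.7% of all genes were. Of the 5, 1 (Ptgs2) was lower there at an unadjusted p under 0.05 in limma. In iHRAS* tumours 1 was called higher (Alox5ap, background 18.1%) and 2 lower (Ptgs2 and Lta4h, background 21.3%).

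Between the tumour models, the ranges of Ltc4s alone did not overlap, which restates the difference by which the set was chosen. Such ranges were seen for 5.83% of the 8058 genes tested with iMet higher and for 4.89% with iMet lower. By adjusted p, 11.2% of those genes were called higher in iMet tumours and 9.7% lower. Against melanocytes the ranges of Ltc4s and Alox5ap did not overlap with those of iMet tumours (background 12.6% higher and 15% lower). Against iHRAS* tumours the range of Alox5ap alone did not (background 11.2% higher and 14.1% lower). The median difference of the 5 genes other than Ltc4s was -0.05 for iMet minus melanocytes and -0.11 for iHRAS* minus melanocytes, beside -0.08 and -0.09 for all genes tested. Between the tumour models it was 0.67, beside 0.03 for all genes.

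**Figure D2:**
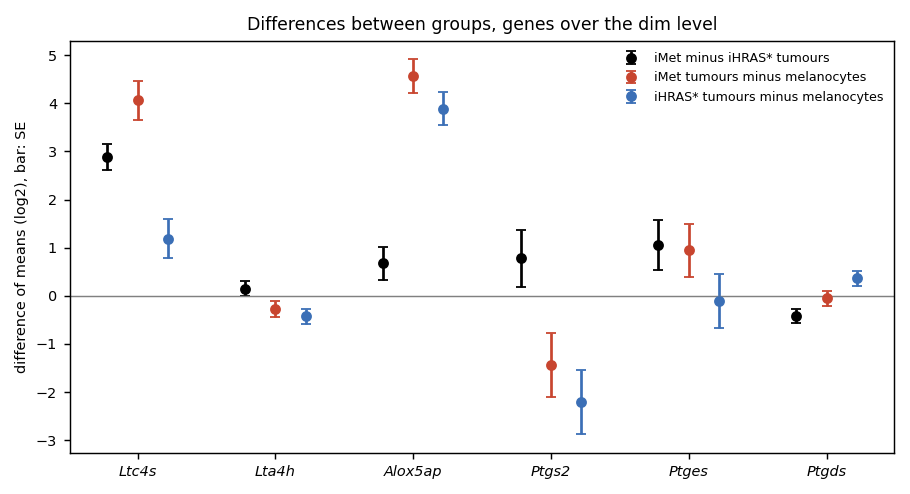
Difference of group means on the log2 scale (y axis) for the 6 eicosanoid synthesis genes over the dim filter (x axis), for iMet minus iHRAS* tumours and for each tumour model minus melanocytes. Points are differences and bars are SE. Alox5ap stands at 4.57 and 3.89 above melanocytes, while Ltc4s is at 4.07 in iMet and 1.19 in iHRAS* tumours.

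Macrophage markers, like Alox5ap, were higher in both tumour models than in melanocytes. All 12 macrophage markers (led by Lyz2, Csf1r and C1qa) rose in both tumour models against melanocytes (background 16.4% in iMet and 18.1% in iHRAS*). Of the 12, 3 were higher in iMet than in iHRAS* tumours (background 11.2%). Their summed log2 signal was 54.2 to 58.6 in melanocytes, 102 to 125 in iHRAS* tumours and 123 to 132 in iMet tumours, and 7 of them (Itgam, Mrc1, C1qa, C1qb, Msr1, Aif1 and Tyrobp) were dim on all 4 melanocyte arrays. In bulk RNA, fewer cells of a type and less RNA per cell cannot be told apart. Among the 6 iHRAS* tumours, Alox5ap followed the mean macrophage signal at r = 0.93 (rho = 0.77), and at 0.84 without the 2 arrays farthest from the median. Among the 6 iMet tumours the value was r = -0.13 (rho = 0.14). Other lists ran with Alox5ap as well. The mast cell mean had r = 0.87 in iMet and 0.73 in iHRAS* tumours (rho = 0.83 in each), and 0.44 and 0.73 without the 2 arrays farthest from its median. The fibroblast mean had r = 0.72 in iMet and 0.63 in iHRAS* tumours, and 0.86 and 0.50 without the 2 arrays farthest from its median. In iMet and iHRAS* tumours, r was 0.63 and 0.35 for the neutrophil mean and 0.22 and 0.87 for the keratinocyte mean. It was 0.94 and -0.27 for the eosinophil mean, on dim signals. The melanocyte-lineage mean had r = -0.64 in iMet (rho = -0.77) and 0.74 in iHRAS* tumours (rho = 0.77). Without the 2 arrays farthest from its median these were 0.26 and 0.15. In the same order r was 0.58 and 0.12 for the endothelial, -0.03 and 0.57 for the lymphocyte and 0.17 and -0.64 for the platelet mean. These are descriptions over 6 arrays that share their normalization, and the part of RNA from any of these cell types in the Alox5ap difference was not tested.

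The Ltc4s and macrophage signals of single tumours are given side by side. iHRAS* arrays 4, 5 and 6 had mean macrophage signals of 10.30, 10.40 and 10.38, above the lowest iMet array at 10.26. Their Ltc4s signals were 6.22, 5.69 and 6.72, against 8.62 or more on every iMet array. Within the groups, Ltc4s and the macrophage mean had r = -0.43 in iMet and 0.51 in iHRAS* tumours. The part of macrophage RNA in the Ltc4s difference was not tested.

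Mast cells carry much Ltc4s in normal tissues, and their markers (Tpsab1, Tpsb2 and Cma1 led the list) were also higher in the tumours. Of 7 tested, 4 rose in iMet (background 16.4%) and 5 in iHRAS* tumours (background 18.1%) against melanocytes. Between the tumour models 0 of 5 passed the test in limma (background 11.2% higher and 9.7% lower). Of these markers, 1 was lower in iMet there at an unadjusted p under 0.05. Their summed log2 signal over 8 genes was 33.5 to 36.9 in melanocytes, 48.5 to 74.4 in iHRAS* tumours and 35.9 to 69.1 in iMet tumours, with Cpa3, Tpsb2, Tpsab1, Mcpt4, Fcer1a and Hdc dim on all melanocyte arrays and Ms4a2 dim on all tumour arrays. Within the iMet tumours Ltc4s and the mean mast cell signal had r = 0.74 (rho = 0.60), and r = 0.06 without the 2 arrays farthest from the median. Within the iHRAS* tumours r was -0.06 (rho = 0.20), and 0.84 without the 2 arrays farthest from the median. The value thus hung on single arrays in both models. iMet arrays 4 and 6, the lowest of their group in that signal, had mean mast cell signals of 4.48 and 5.46 and Ltc4s signals of 8.62 and 8.77. iHRAS* array 6 had a mean mast cell signal of 9.30 and an Ltc4s signal of 6.72. The part of mast cell RNA in the Ltc4s difference was not tested. All 5 eosinophil markers with a probe set were dim on all 16 arrays.

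Other lists also shifted. Endothelial markers (led by Eng, Egfl7 and Esam) had a summed signal of 37.2 to 48.9 in melanocytes, 68.1 to 79.4 in iHRAS* and 72.9 to 92.3 in iMet tumours. Of 10, 7 were higher in iMet than in iHRAS* tumours (background 11.2%). Keratinocyte markers summed to 75.4 to 109 in melanocytes, 98.4 to 113 in iHRAS* and 49.97 to 96.6 in iMet tumours. Of 10 tested, 4 were lower in iMet than in iHRAS* (background 9.7%). Against melanocytes, 7 of 11 were lower and 2 higher in iMet tumours (background 18.7% and 16.4%). In iHRAS* tumours 0 were lower and 3 higher (background 21.3% and 18.1%). Of 4 melanocyte-lineage genes tested between the tumour models, 3 were lower in iMet and 0 higher (background 9.7% lower and 11.2% higher). The log2 differences were -3.26 ± 0.33 for Sox10, -2.33 ± 0.44 for Pax3 and -1.15 ± 0.31 for Pmel (SE, limma, adjusted p = 9.34e-05, 0.00325 and 0.0211). Mitf differed by 0.22 ± 0.30 (adjusted p = 0.644). Pax3 and Pmel passed the dim filter only through iHRAS* arrays. The part of any of these cell types in the Ltc4s, Ptgs2 and Ptges differences was not tested.

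**Figure D3:**
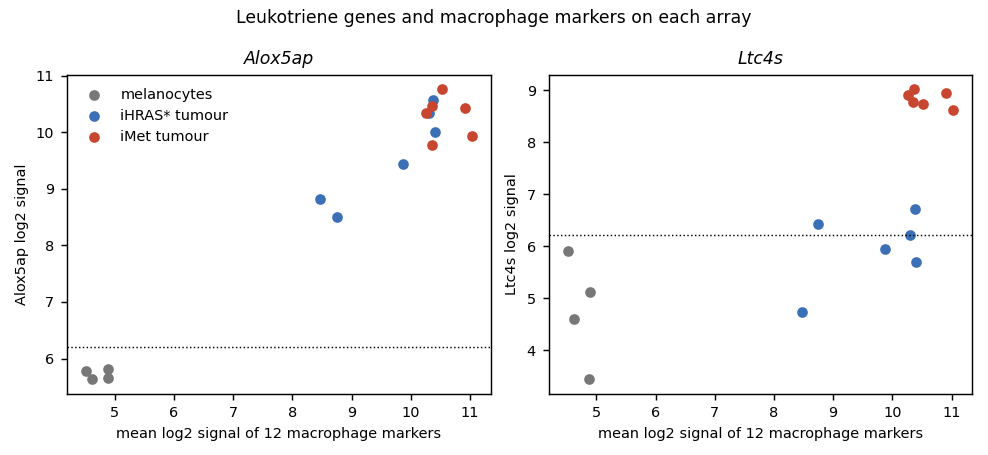
Log2 signal of Alox5ap (left) and Ltc4s (right) against the mean log2 signal of 12 macrophage markers on each of 16 arrays, coloured by group. The dotted line is the dim level of 6.21. The macrophage mean is 8.47 to 10.40 in iHRAS* and 10.26 to 11.02 in iMet tumours. Alox5ap is 8.49 to 10.57 and 9.78 to 10.76, and Ltc4s is 4.73 to 6.72 and 8.62 to 9.03.

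Some pairs of genes from the leukotriene and prostaglandin branches ran in opposite directions among tumours of 1 model. In the iHRAS* tumours Alox5ap and Ptgs2 had r = -0.93: arrays 2 and 3 had the lowest Alox5ap signals (8.49 and 8.82) and the highest Ptgs2 signals (9.67 and 9.35). Mean macrophage signal was also lowest on those 2 arrays, at 8.75 and 8.47. In the iMet tumours Ltc4s and Ptgs2 had r = -0.90, although Ltc4s spanned only 8.62 to 9.03. Other pairs across the branches ran together: in the iHRAS* tumours Lta4h had r = 0.89 with Ptges and 0.71 with Ptgs2. Each is 1 of many pairs over 6 arrays and is given as a description.

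By profile, the genes most like Ltc4s over 16 arrays, among 8650 others, were Clec5a (r = 0.940), Oxct1 (r = 0.894), Rgcc (r = 0.892), Fkbp5 (r = 0.892) and Tmem100 (r = 0.887). Clec5a, a lectin receptor of myeloid cells, had mean log2 signals of 6.32 in iMet, 5.31 in iHRAS* and 4.40 in melanocyte arrays. Rgcc, a regulator of the cell cycle, had 9.20, 6.37 and 5.75, and Tmem100, a membrane protein, had 7.87, 4.67 and 2.00. Oxct1, an enzyme of ketone body use, had 11.47, 10.64 and 10.35, and Fkbp5, a glucocorticoid-induced chaperone, had 11.11, 10.16 and 8.85. The correlations include the differences between the groups. Within the iMet and the iHRAS* tumours they were -0.89 and 0.76 for Clec5a, 0.61 and 0.49 for Oxct1, 0.56 and -0.20 for Rgcc, 0.47 and 0.37 for Fkbp5 and 0.44 and -0.01 for Tmem100.

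The wider pathway was described by 54 other genes in 4 lists, of which 46 had a probe set. Against melanocytes, 29 were tested: 8 rose and 4 fell in iMet tumours, and 11 rose and 3 fell in iHRAS* tumours, with median differences of 0.03 and 0.52. Over all genes tested, 16.4% were higher and 18.7% lower in iMet and 18.1% and 21.3% in iHRAS* tumours, with medians of -0.08 and -0.09. The counts of each list below are to be read beside those shares. Between the tumour models 24 were tested, 1 was higher in iMet, 3 were lower and 20 were neither, with a median of -0.14, beside 11.2% higher, 9.7% lower and a median of 0.03 over all genes.

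Among the receptors, Cysltr1, Ptger2 and Ptgfr were called higher in both tumour models than in melanocytes. For Cysltr1 in iHRAS* tumours both means were under the dim level. Cysltr1, the receptor for the cysteinyl leukotrienes that start from the Ltc4s product, was the 1 gene of these lists called higher in iMet than in iHRAS* tumours. Its log2 signal was 6.94 to 8.20 in iMet tumours (mean 7.36 ± 0.49, SD, n = 6), 5.10 to 6.60 in iHRAS* tumours (5.88 ± 0.50, SD, n = 6) and 1.43 to 4.02 in melanocytes (2.58 ± 1.27, SD, n = 4). No ranges overlapped. It was over the dim level on 6 of 6 iMet arrays but on 1 of 6 iHRAS* arrays and 0 of 4 melanocyte arrays. The difference between the models was 1.49 ± 0.27 (log2, SE, limma, adjusted p = 0.00267, and 0.00644 with no dim filter). At a filter of the 60th percentile Cysltr1 was not tested. Against melanocytes iMet was higher by 4.79 ± 0.45 (adjusted p = 2.19e-06), at least 2.23-fold. The iHRAS* difference from melanocytes was 3.30 ± 0.45 (limma, adjusted p = 7.5e-05, and 0.000157 with no dim filter). Both of those means were under the dim level, and Cysltr1 entered that test through the iMet arrays. That p-value therefore compares signals near background.

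Ptger2, a prostaglandin E2 receptor, rose in both tumour models. Its log2 signal was 6.31 to 8.55 in iMet, 6.97 to 9.43 in iHRAS* and 0.49 to 4.16 in melanocyte arrays. The differences from melanocytes were 5.55 ± 0.67 (limma, adjusted p = 2.31e-05) and 6.16 ± 0.67 (adjusted p = 8.65e-06), at least 2.34-fold and 3.58-fold over the dim level, since all 4 melanocyte arrays were dim. The models differed by -0.62 (adjusted p = 0.393). Ptgfr, the prostaglandin F receptor, was 3.70 ± 0.61 above melanocytes in iMet (adjusted p = 0.000322), at least 3.41-fold. In iHRAS* tumours it was 2.03 ± 0.61 above them (adjusted p = 0.0156), at least 1.07-fold, a call lost without melanocyte array 4 (1.73, adjusted p = 0.0551). Ptger2 and Ptgfr were dim on all melanocyte arrays and passed the dim filter only through tumour arrays. With no such filter the adjusted p-values in iMet and iHRAS* were 4.94e-05 and 1.99e-05 for Ptger2 and 0.000642 and 0.0232 for Ptgfr. Tbxa2r, the thromboxane receptor, was lower in iMet (mean 6.26) than in iHRAS* (mean 6.90) by a log2 difference of -0.64 ± 0.21 (adjusted p = 0.0472). That call held in 3 of 12 fits with 1 array left out. Of 6 receptors tested, 3 rose and 0 fell against melanocytes in each tumour model in limma, and 0 were lower at an unadjusted p under 0.05. The iHRAS* count includes Cysltr1, called between means under the dim level.

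Slco2a1 and Hpgd, which take up and break down prostaglandins, had their highest means in the iHRAS* tumours. Slco2a1, the transporter that takes prostaglandins into cells, had log2 signals of 9.50 to 11.33 in iHRAS*, 7.79 to 9.67 in iMet and 5.58 to 7.76 in melanocyte arrays. It was 3.85 ± 0.46 above melanocytes in iHRAS* (limma, adjusted p = 2.09e-05), 2.05 ± 0.46 in iMet (adjusted p = 0.0032, and 0.0689 without melanocyte arrays 1 and 3) and lower in iMet than in iHRAS* by -1.79 ± 0.37 (adjusted p = 0.00525). Hpgd, the dehydrogenase that inactivates prostaglandins, was 5.20 to 10.44 in iHRAS*, 1.56 to 5.42 in iMet and 0.53 to 3.57 in melanocyte arrays. Its iHRAS* difference from melanocytes was 6.21 ± 0.91 (adjusted p = 0.00013, and 0.000259 with no dim filter), at least 3.71-fold. It was over the dim level on 5 of 6 iHRAS*, 0 of 6 iMet and 0 of 4 melanocyte arrays. Hpgd thus passed the filter only through the iHRAS* arrays, where it was high. It was not tested between the tumour models because too few arrays were over the dim level. Abcc1, an exporter of leukotriene C4, fell in both tumour models, with a difference of -0.69 ± 0.21 in iMet (adjusted p = 0.0182) and -0.74 ± 0.21 in iHRAS* tumours (adjusted p = 0.0114, and 0.105 without melanocyte arrays 1 and 3). Of 7 genes of breakdown and transport tested, 1 rose and 1 fell in iMet and 3 rose and 1 fell in iHRAS* tumours.

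Among the other synthases, 2 of 10 rose and 2 fell in iMet tumours and 4 rose and 1 fell in iHRAS* tumours. Hpgds, the haematopoietic prostaglandin D synthase, was 1.64 ± 0.31 above melanocytes in iMet (limma, adjusted p = 0.00105). It was over the dim level on 3 of 6 iMet, 1 of 6 iHRAS* and 0 of 4 melanocyte arrays. Hpgds thus passed the filter only through tumour arrays. With no such filter the adjusted p was 0.00201, and the bound from the dim level is at least 1.07-fold. Ptges2, another prostaglandin E synthase, fell in iMet tumours with a difference of -0.75 ± 0.16 (adjusted p = 0.00281). Mgst3, a microsomal glutathione transferase of the Ltc4s family, was 1.20 ± 0.33 above melanocytes in iHRAS* (adjusted p = 0.0102, and 0.124 without melanocyte arrays 1 and 3) and lower in iMet than in iHRAS* by -1.17 ± 0.30 (adjusted p = 0.0169, and 0.0554 without iHRAS* arrays 5 and 6). The sign of this difference was opposite to that of Ltc4s.

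Of 6 phospholipases tested, 2 rose and 1 fell in iMet tumours and 1 rose and 1 fell in iHRAS* tumours. Pla2g7, which breaks down platelet-activating factor, was 2.07 ± 0.50 above melanocytes in iMet (limma, adjusted p = 0.00528) and 2.53 ± 0.50 in iHRAS* tumours (adjusted p = 0.00124). Pla2g12a, a secreted phospholipase, fell with differences of -1.46 ± 0.37 (adjusted p = 0.00688) and -1.30 ± 0.37 (adjusted p = 0.0121). Without melanocyte arrays 2 and 4 those adjusted p-values were 0.0564 and 0.0872. Pla2g4a, the cytosolic phospholipase that supplies most arachidonic acid for eicosanoids, had mean log2 signals of 8.68 in iMet, 8.46 in iHRAS* and 8.89 in melanocyte arrays and passed the test in no comparison (adjusted p = 0.570, 0.580 and 0.237).

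**Figure D4:**
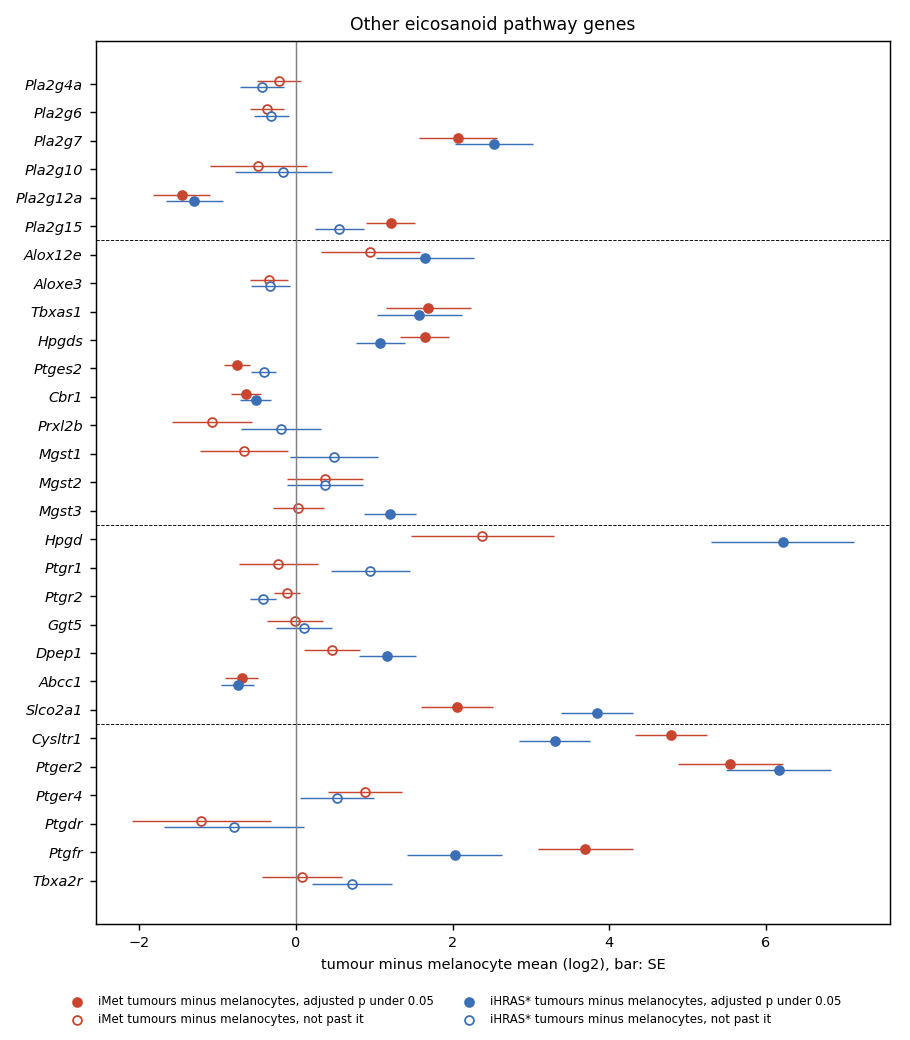
Difference between tumour and melanocyte means on the log2 scale (x axis) for 29 other eicosanoid pathway genes (y axis), in red for iMet and blue for iHRAS* tumours. Bars are SE, filled points passed an adjusted p of 0.05, and dashed lines separate phospholipases, synthases, breakdown and transport, and receptors. Cysltr1 (4.79 and 3.30) and Ptger2 (5.55 and 6.16) lie far to the right in both models, and Hpgd (6.21) in iHRAS* tumours. These genes were dim on all melanocyte arrays, and the iHRAS* mean of Cysltr1 was also under the dim level.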

How the data were processed

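The deposited table held log2 signals of 22690 probe sets on 16 Affymetrix arrays; the sources used here do not name how the authors summarised or normalized them. Per the labels' protocols, total RNA was copied to biotin-labelled cRNA with an oligo-dT primer. The deposited log2 medians ran from 6.56 to 7.28, so 22626 probe sets, without 64 controls, were quantile-normalized here. Probe sets with 1 gene symbol (20380) were kept, those with several (691) or none (1555) were not named, and the brightest stood for each of 12393 genes. Genes over the dim level of 6.21 (40th percentile) on at least 6 tumour arrays, or 4 of all 16, were tested two-sided with limma 3.58.1 in R 4.3.3 (lmFit, eBayes), with Benjamini-Hochberg adjustment over all genes tested and calls at an adjusted p of 0.05. The tumour contrast used the 12 tumour arrays and the melanocyte contrasts all 16. The fit was tested on simulated data. The number of arrays limits the precision.

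The genes and lists were chosen with earlier results of these data known. Named pathway genes were up to 8 called genes with the smallest adjusted p in each contrast and any receptor called; Pla2g4a was named after its values were seen. The alternatives changed the scaling, the dim filter, the probe set rule, the arrays in the fit, a replicate block and arrays left out. Replicate numbers were not taken to pair the arrays, except in the fit with a replicate block.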

Additional observations from a re-analysis of the deposited data

Results flagged for a closer look

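Among 36 sets of values (12 probe sets in 3 groups), 3 held an array far from the others of its group by Dixon's test, which flags about 1 in 20 sets by chance. Ptges (1449450_at) was 11.09 on iHRAS* array 3, against 8.64 on the next highest and 7.45 on the lowest array. Lta4h (1453528_at) was 3.94 on iMet array 5, against 5.27 on the next lowest and 5.92 on the highest array, all dim signals. Ptgds (1423860_at) was 1.09 on iHRAS* array 2, against 3.56 on the next lowest and 4.79 on the highest array, also all dim.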

How the results depend on the processing

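Under the alternatives, 883 values of single genes kept their side of the threshold or stayed within the spread. Of the others, 50 lost the call, 4 gained it, 1 moved by more than the spread and 1 called difference reversed. A change of sign in a difference not called was not counted as a reversal. Ptgds in iMet minus melanocytes was such a case (-0.05, and 0.26 as deposited). The causes were not tested. The reversal was Lta4h in iHRAS* minus melanocytes, at 0.14 (log2) with the mean of all probe sets. Ltc4s kept its direction in all settings: with 1 array left out it was 2.63 to 3.03 between the models, 3.62 to 4.44 for iMet and 0.75 to 1.57 for iHRAS* minus melanocytes.

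Of the synthesis genes other than Ltc4s, 1 was called higher and 2 lower in iHRAS* tumours. The higher count was 2 in the values as deposited and 2 with each array centred. The lower count was 1 with no dim filter, 1 with the mean of all probe sets, 1 adjusted over all probe sets, 1 with the iHRAS* and melanocyte arrays alone, 1 without melanocyte arrays 2 and 4, 0 without melanocyte arrays 1 and 3 and 0 without iHRAS* arrays 5 and 6. With 1 array left out these counts were 1 to 2 and 0 to 2. In iMet tumours they were 1 to 2 higher and 0 to 0 lower.

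Of the pathway lists, the 1 gene higher in iMet than iHRAS* became 2 as deposited, 2 with no dim filter, 0 at the 60th percentile, 3 with the mean of all probe sets and 2 with all 16 arrays in the fit. The 3 lower became 5 with no dim filter and 1 with the mean of all probe sets. Against melanocytes, the 8 higher in iMet became 5 at the 60th percentile, and the 11 higher in iHRAS* became 6 there and 7 without melanocyte arrays 2 and 4. With 1 array left out the counts were 1 to 2 higher and 2 to 4 lower between the models, 7 to 9 and 3 to 4 in iMet, and 9 to 11 and 2 to 4 in iHRAS*.

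With the replicate number as a block, 0 synthesis genes were called lower in iHRAS* tumours (Ptgs2 -1.98, adjusted p = 0.0846) and 2 pathway genes lower in iMet. The 14 same-numbered pairs correlated at -0.22 to 0.11, 2 of them over 0.1. Those 2 were the tumour pairs numbered 5 and 6 (0.11 and 0.10), while the tumour pairs numbered 1 to 4 had -0.22 to -0.11. Such values cannot tell whether arrays of the same number shared a batch.

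Scaling moved all genes together: as deposited, the median difference over all genes was 0.23 between the models, against 0.03, and the share of calls that were higher was 80.1% against 53.6%. With arrays centred, that share was 33.7% against 46.6% in iMet and 34.2% against 46.0% in iHRAS* minus melanocytes, with medians of -0.22 and -0.23; as deposited the latter was 35.6%. Signals at or under the dim level limit Ltc4s, Alox5ap, Ptgds and Ptgis in melanocytes. They also limit Ltc4s in iHRAS* tumours and Ptgds and Ptgis in both tumour models.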

Other observations

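Ltc4s varied little among the iMet tumours, at 8.62 to 9.03 on the log2 scale. Over the same 6 arrays the mean signals of neutrophil markers (5.73 to 10.01), mast cell markers (4.48 to 8.64) and keratinocyte markers (4.54 to 8.78) spread widely. Those of macrophage markers (10.26 to 11.02), fibroblast markers (11.25 to 12.03) and melanocyte-lineage markers (4.84 to 5.85) spread less, though more than Ltc4s. The other means were 7.29 to 9.23 for endothelial, 3.03 to 6.03 for lymphocyte, 5.73 to 6.99 for platelet and 1.40 to 3.38 for eosinophil markers. Which cells carried the Ltc4s signal was not tested.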
